A study of Capsicum annuum with 5 samples.

Results

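The miRNA families can-miR160 and can-miR390 of pepper (Capsicum annuum, inbred line Zunla 1) were followed through 5 small RNA libraries, 1 each from root, stem, leaf, flower and fruit. They were taken from the deposited miRNA annotation by the number in their name, which gave 4 of its 165 distinct hairpins and 8 of its 314 mature sequences, 2 hairpins and 4 mature sequences for each family. Roots and stems were labelled as developing and leaves as mature, all 3 from soil-grown plants kept at 22 °C with 16 h of light, the flowers were fully open, and for flowers and fruits the temperature and light are not stated. The fruit is named mature green in its own label, while the text of the series describes a fruit that was turning red 30 days after pollination, so its stage is not stated here. The extraction text of all 5 libraries speaks of frozen root tissue, which conflicts with 4 of the tissue labels; because the files hold miRNAs alone, those labels could not be checked against marker genes. No treatment or mutant is part of the study, and the sources used here do not say how many plants went into a library. With 1 library for each tissue there are no replicates and no tests, and every interval covers counting error only. Counting each sequence once per family, the listed miRNA tags numbered 678695 in flower, 542531 in leaf, 318815 in stem, 311417 in fruit and 231560 in root; these are sums over annotated miRNAs and not the depth of the libraries.

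Plant miRNAs are cut by DICER-LIKE1 as a duplex from a hairpin, and the guide strand is loaded into an ARGONAUTE protein while the other strand, the passenger, is usually degraded. In Arabidopsis, miR160 guides from the 5′ arm and cleaves mRNAs of repressor-type auxin response factors (ARFs), transcription factors that act on auxin-responsive genes. miR390 also guides from the 5′ arm, is loaded into AGO7 and directs cleavage of the noncoding TAS3 transcript, from which trans-acting siRNAs against another group of ARF mRNAs are made. Both families are therefore known as regulators of auxin response in leaf, flower and root development. Which arm guides in pepper was not tested here. For miR160 and miR390, guide below means the 5′ arm, by this background alone.

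The 8 mature sequences are shown because the members of each family differ by few bases and the counts below turn on telling them apart. They are written 5′ to 3′ with T for U, as deposited, and capitals mark the seed, bases 2 to 8. All were 21 nt long, none stood on a second hairpin, and the 5′ seeds were each shared by exactly 2 of the 314 mature sequences, the a and b members of the family.
miR160a-5p: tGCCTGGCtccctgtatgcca
miR160b-5p: tGCCTGGCtccttgtatgcca
miR160a-3p: gCGTATGAggagccaagcata
miR160b-3p: gCATTCTAggagccatgcatg
miR390a-5p: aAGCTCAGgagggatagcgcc
miR390b-5p: aAGCTCAGgagggatagcacc
miR390a-3p: cGCTATCCatcttgagtttta
miR390b-3p: cGCTATCCatcctgagtttta

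Counted from the 5′ end, with the base of the a member first, the 5′ arms of miR160 differed by C12T and those of miR390 by G19A, both outside the seed. The 3′ arms of miR390 differed at 1 position as well, T12C, so each arm gives a separate reading of which hairpin a tag came from. The 3′ arms of miR160 differed at 6 positions, G3A, A5T, T6C, G7T, A16T and A21G, of which 4 lie in the seed. The 5′ arms of miR160 began with U (T as written), the base that AGO1 favours in Arabidopsis, and those of miR390 with A.

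All 4 hairpins lay on the minus strand, on coordinates of a genome build that the sources used here do not name. Here capitals mark the mature arms.
miR160a: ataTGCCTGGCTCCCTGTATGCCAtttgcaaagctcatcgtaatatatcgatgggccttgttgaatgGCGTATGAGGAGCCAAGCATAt
miR160b: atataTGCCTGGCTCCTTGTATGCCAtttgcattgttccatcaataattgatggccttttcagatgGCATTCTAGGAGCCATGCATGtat
miR390a: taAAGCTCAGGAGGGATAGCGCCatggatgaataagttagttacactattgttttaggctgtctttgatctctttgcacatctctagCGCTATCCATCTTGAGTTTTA
miR390b: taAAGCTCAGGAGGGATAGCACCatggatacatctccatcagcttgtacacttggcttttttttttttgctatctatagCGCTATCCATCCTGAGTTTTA

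miR160a was 89 nt long on chromosome 5 (217022551 to 217022639) and miR160b 90 nt on chromosome 9 (232408282 to 232408371). miR390a was 108 nt on chromosome 9 (136264496 to 136264603) and miR390b 100 nt on the sequence named Chr00 (662042213 to 662042312). The median over all 165 hairpins was 101 nt (58 to 321), so none of the 4 was extreme in length. On the listed coordinates none had a close neighbour: the nearest other hairpin was 254171 bp away for miR160a and at least 2614325 bp away for the other 3. For miR390b this distance holds on Chr00 as listed, and whether Chr00 stands for a chromosome was not checked. In the fold drawn in the deposited annotation, 16 bases of the miR160a 5′ arm paired with the 3′ arm, 15 in miR160b, 18 in miR390a and 17 in miR390b. With the arms as annotated, each duplex ended in 3′ overhangs of 2 nt on both sides, the form that Dicer-like enzymes leave. So did 109 of the 117 hairpins in which both arms could be placed (93.2%). Both arms of miR160b were listed at 0 tags, so its ends rest on the annotation alone. The arms of miR390 were 64 nt apart in miR390a and 56 nt in miR390b, against 43 and 40 nt in miR160a and miR160b, and the stretch between the arms of miR390b held a run of 12 T. The genes around the hairpins were not analysed here.

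**Figure D1:**
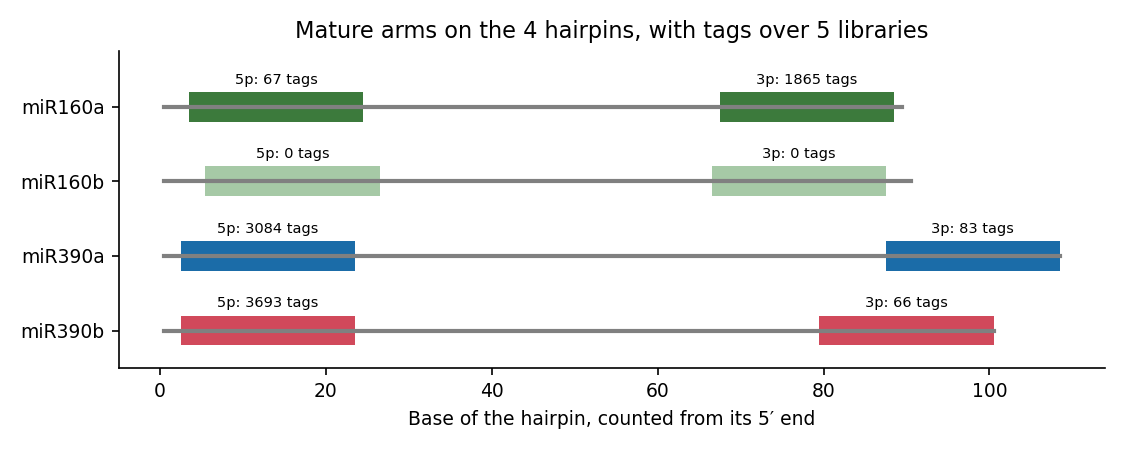
Map of the 4 hairpins to scale, with the base of the hairpin on the horizontal axis, the mature arms as boxes and the tags of each arm summed over the 5 libraries above them. Tags lay mostly on the 5′ arm in miR390a (3084) and miR390b (3693) and on the 3′ arm in miR160a (1865), and miR160b had 0.

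The families differed in the number of tags listed. Of the tags of the 2 families, miR390 had 6926 and miR160 had 1932 over the 5 libraries. Of the 8 sequences, 5 had tags in all 5 libraries, miR390a-3p had tags in all but fruit, and both arms of miR160b were listed at 0 in all 5. Over the whole annotation only 1 of 825 hairpin totals per library lay between 1 and 4 tags, whereas 47 lay between 5 and 9, so the 0 of miR160b may stand for up to 4 tags per library and no limit is derived from it.

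miR390a and miR390b, whose guides differ at 1 base, were both high in stem but went opposite ways in leaf and flower. miR390b-5p was high in leaf and stem and lowest in flower, while miR390a-5p was high in stem, flower and root and low in leaf and fruit. miR390b-5p had 2032 tags in leaf, 1050 in stem, 238 in root, 264 in fruit and 109 in flower. In normalised tags, counts per 1000000 listed tags of the library with each sequence taken once, this was 3745 in leaf (exact Poisson 95% interval 3584 to 3912), 3293 in stem (3097 to 3499), 1028 in root (901 to 1167), 848 in fruit (749 to 956) and 161 in flower (132 to 194). Leaf and stem thus formed the upper pair, root and fruit lay in between, and flower was lowest. Leaf was 23.3-fold higher than flower (exact binomial 95% interval 19.2 to 28.5, and 8.61 to 34.3 over 4 ways of scaling the libraries). The lead of leaf over stem was 1.14-fold (1.06 to 1.23) and turned to 0.928 when the totals were taken without miR166, so these neighbours have no fixed order. Likewise root over fruit was 1.21-fold (1.01 to 1.45) and 0.716 with that scaling. In a bulk tissue, fewer cells that make a miRNA and less of it per cell cannot be told apart.

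miR390a-5p had 874 tags in stem, 1362 in flower, 417 in root, 305 in leaf and 126 in fruit. Normalised, this was 2741 in stem (2563 to 2929), 2007 in flower (1902 to 2116), 1801 in root (1632 to 1982), 562 in leaf (501 to 629) and 405 in fruit (337 to 482). Stem, flower and root each stood above leaf and fruit under all 4 scalings. The order inside these groups was not fixed: stem over flower was 1.37-fold (1.25 to 1.49) but 0.475 with median-of-ratios size factors, flower over root was 1.11-fold with an interval that held 1 (0.998 to 1.25) and 0.753 when counts were summed over hairpins, and leaf over fruit was 1.39-fold but 0.771 with totals without miR166. Flower exceeded leaf 3.57-fold (3.15 to 4.05, and 2.43 to 9.67 over the scalings), the opposite direction to miR390b-5p. Of the 10 pairs of tissues, 7 for miR390a-5p and 8 for miR390b-5p had a counting interval that left out 1 and the same direction under all 4 scalings.

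**Figure D2:**
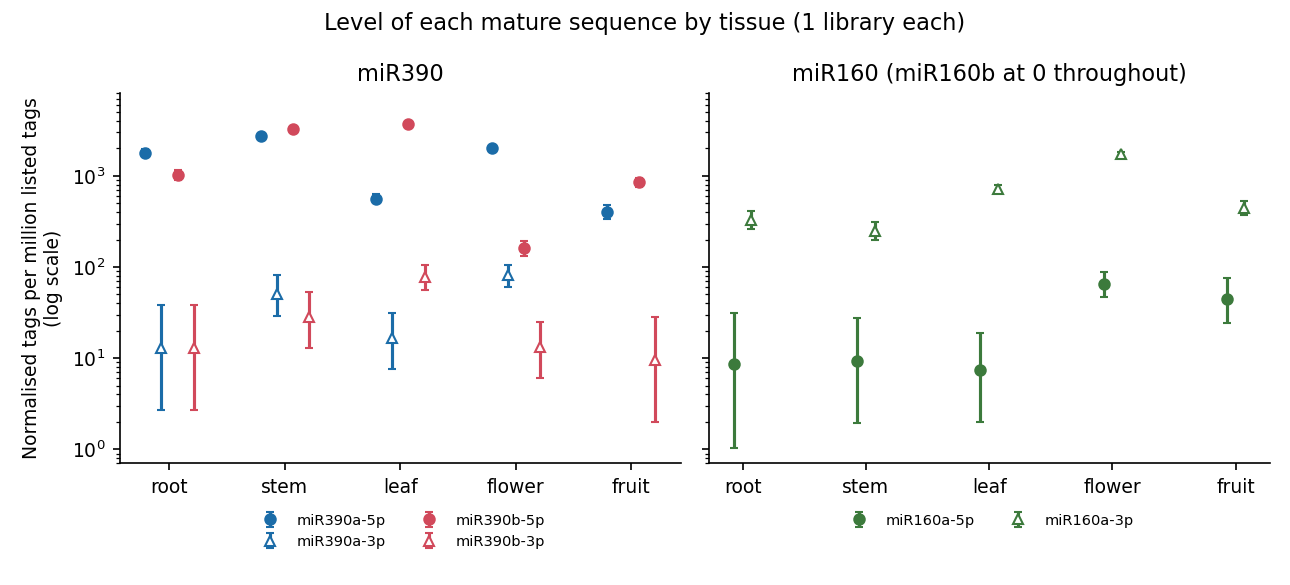
Normalised tags of each mature sequence (log scale) in the 5 tissues, with exact Poisson 95% intervals as bars; filled circles are 5′ arms, open triangles 3′ arms, and a sequence at 0 has no point. miR390b-5p is at 3745 in leaf and at 161 in flower, where miR390a-5p is at 2007; miR160a-3p peaks at 1737 in flower.

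The proportion of the 2 guides within a library needs no scaling between libraries. miR390a-5p made up 92.6% of the miR390 5′ tags in flower (95% Clopper-Pearson interval 91.1 to 93.9), 63.7% in root (59.8 to 67.4), 45.4% in stem (43.2 to 47.7), 32.3% in fruit (27.7 to 37.2) and 13.1% in leaf (11.7 to 14.5). All 5 intervals were separate, so each step in this order exceeded counting error. miR390a-5p was thus the major guide in flower and root and miR390b-5p in leaf and fruit, with the stem nearest to equal shares. The ratio of miR390a-5p to miR390b-5p was 12.5 in flower (10.3 to 15.3) and 0.150 in leaf (0.133 to 0.169), an 83.2-fold change (exact interval 65.9 to 106).

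The 3′ arms, separate sequences that carry their own base difference, were few but fell in the same direction in flower and leaf. miR390a-3p had 55 tags in flower, 16 in stem, 9 in leaf, 3 in root and 0 in fruit. miR390b-3p had 42 tags in leaf, 9 in stem, 9 in flower, 3 in root and 3 in fruit. The share of miR390a-3p was 85.9% in flower (75.0 to 93.4) and 17.6% in leaf (8.40 to 30.9), a 28.5-fold change of the ratio (9.47 to 88.9). In stem it was 64.0% (42.5 to 82.0), in root it rested on 6 tags, and in fruit it rested on the 3 tags of miR390b-3p, so the order of these 3 tissues is not detectable from the 3′ arms. How a tag 1 base off a guide was assigned is not stated, and its part in these shares was not tested.

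**Figure D3:**
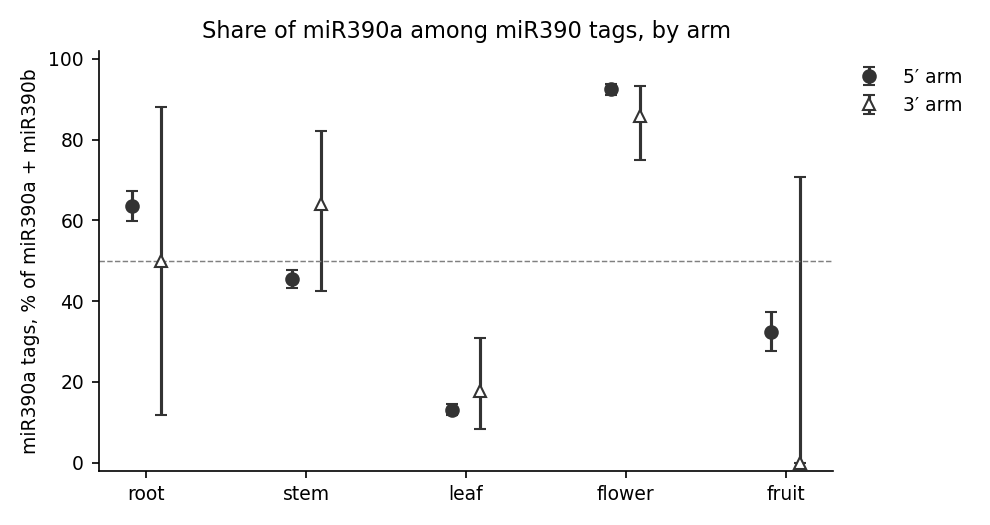
Share of miR390a among miR390a and miR390b tags in each tissue, for the 5′ arm (filled circles) and the 3′ arm (open triangles), with 95% Clopper-Pearson intervals; the dashed line marks equal shares. Both arms lie above it in flower (92.6% and 85.9%) and below it in leaf (13.1% and 17.6%).

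A changing ratio between members was common in this annotation. It was measured on 62 pairs of sequences of the same family and arm, each sequence with at least 50 tags summed over the 5 libraries. Of these pairs, 54 (87.1%) changed their ratio at least 4-fold between the libraries, with 1 tag added to each count. Both miR390 pairs were among them. The 3′ pair reached the minimum only through the tissues where its members were high. Flower gave 55 of the 83 tags of miR390a-3p, and leaf 42 of the 66 of miR390b-3p. Its place among the 54 is therefore no separate support, and other pairs may have entered in the same way. The miR390 5′ pair, at 82.3-fold by this measure, ranked 25 of 62, where the median was 53.6-fold. Among the 19 pairs that differed at 1 base the median was 6.88-fold and the miR390 5′ pair ranked 4. Pairs of a family share sequences and are not independent, so these ranks are a description.

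Summed over both hairpins and arms, the normalised tags of miR390 were 6113 in stem (5845 to 6391), 4402 in leaf (4227 to 4582), 2855 in root (2641 to 3081), 2262 in flower (2150 to 2378) and 1262 in fruit (1140 to 1393). Fruit was lowest under all 4 scalings, with stem 4.84-fold above it (4.34 to 5.41, and 3.02 to 5.34 over the scalings). Stem was highest by listed total, as in 12 of the 57 families with at least 10 tags (21.1%). With median-of-ratios size factors, however, flower came first, at 4954 against 4652 in stem. Stem over leaf was 1.39-fold (1.31 to 1.48), and 1.00 when counts were summed over hairpins.

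In both miR390 hairpins nearly all tags came from the 5′ guide arm. Its share in miR390a was 99.3% in root (97.9 to 99.9), 98.2% in stem (97.1 to 99.0), 97.1% in leaf (94.6 to 98.7), 96.1% in flower (94.98 to 97.1) and 100% in fruit (97.1 to 100). In miR390b it was 99.2% in stem (98.4 to 99.6), 98.9% in fruit (96.8 to 99.8), 98.8% in root (96.4 to 99.7), 98.0% in leaf (97.3 to 98.5) and 92.4% in flower (86.0 to 96.5). Flower had the lowest 5′ share in both hairpins. For miR390b its interval did not overlap those of stem, leaf and fruit and just overlapped that of root, whereas for miR390a it overlapped that of leaf and lay below those of stem, root and fruit.

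miR160 was highest in flower under all 4 scalings, and its tags came almost wholly from miR160a-3p, the arm opposite the guide. miR160a-3p had 1179 tags in flower, 392 in leaf, 139 in fruit, 76 in root and 79 in stem. The normalised values were 1737 in flower (1639 to 1839), 723 in leaf (653 to 798), 446 in fruit (375 to 527), 328 in root (259 to 411) and 248 in stem (196 to 309). Flower stood apart. It was 2.40-fold over leaf (2.14 to 2.70), with 1.64 to 6.51 as the range of the scalings, and 7.01-fold over stem (5.58 to 8.92), with 6.54 to 20.2 as their range. Root and stem did not differ beyond counting error (1.32-fold, 0.954 to 1.84), and the place of fruit next to leaf and root changed with the scaling. Summed over both arms, miR160 was at its highest in flower, as were, by listed total, 7 of the 57 families (12.3%). That share is given for this scaling alone, in which flower values were low for many families, as described below.

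miR160a-5p, from the arm that guides in Arabidopsis, was rare, with 44 tags in flower, 14 in fruit, 4 in leaf, 3 in stem and 2 in root. Its normalised values were 64.8 in flower (47.1 to 87.0), 45.0 in fruit (24.6 to 75.4), 9.41 in stem (1.94 to 27.5), 8.64 in root (1.05 to 31.2) and 7.37 in leaf (2.01 to 18.9). Flower and fruit thus lay above leaf, stem and root. Flower over leaf was 8.79-fold (3.20 to 33.7), with 5.98 to 23.8 as the range of the scalings. Fruit over leaf was 6.10-fold (1.91 to 25.4), with 3.99 to 10.98 as their range. Between flower and fruit no difference was detectable at this depth (1.44-fold, 0.776 to 2.85), and the direction turned with totals without miR166 (0.915). Leaf, at 723 for the 3′ arm, was at 7.37 for the guide, where root, stem and leaf did not differ beyond counting error.

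This shows in the share of the 5′ arm in miR160a, which was 9.15% in fruit (5.09 to 14.9), 3.66% in stem (0.761 to 10.3), 3.60% in flower (2.63 to 4.80), 2.56% in root (0.312 to 8.96) and 1.01% in leaf (0.276 to 2.57). Fruit exceeded flower and leaf, and flower exceeded leaf, by more than their counting intervals, while root and stem could not be placed. The 3′ arm had more tags in every library. Counting only libraries with at least 10 tags, this held for 29 of the 89 hairpins with both arms listed and at least 50 tags (32.6%), miR160a among them and miR390a and miR390b not. In plants the 3′ arm is the known guide of several families, such as miR166, so the share is one of arms and not of passengers. How well either strand is captured in a library was not measured, and its part in the arm shares was not tested.

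**Figure D4:**
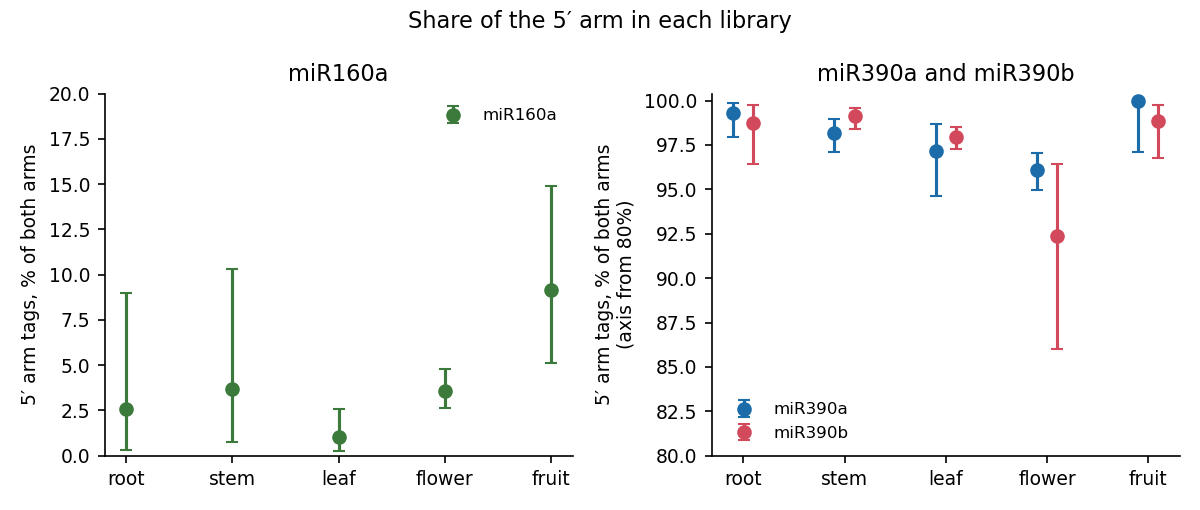
Share of the 5′ arm among the tags of a hairpin in each tissue, with 95% Clopper-Pearson intervals, for miR160a (left, 0 to 20%) and for miR390a and miR390b (right, axis from 80%). In miR160a the share lies between 1.01% in leaf and 9.15% in fruit, in the miR390 hairpins between 92.4% and 100%.

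Set side by side within a library, miR390 had 23.8 times the tags of miR160 in stem (19.1 to 30.02), 8.47 times in root (6.69 to 10.9), 6.03 times in leaf (5.42 to 6.72), 2.57 times in fruit (2.13 to 3.12) and 1.26 times in flower (1.16 to 1.35). All sequences are of the same length, so length does not enter these ratios. How evenly different sequences are captured in a library was not measured, so these are ratios of tags and not of molecules. For the guide arms alone the ratio was 641 in stem (219 to 3113), 584 in leaf (228 to 2146), 328 in root (90.3 to 2710), 33.4 in flower (24.8 to 46.2) and 27.9 in fruit (16.4 to 51.4). Flower and fruit were the tissues with the smallest excess of miR390 guide over miR160 guide, and the other 3 overlapped each other widely, since miR160a-5p had between 2 and 4 tags there.

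The scaling of the libraries moved the tissue order of some members. For each of the 31 families that had tags in every library, the log2 normalised value was taken relative to the mean of that family. The median of these was 0.39 in stem, 0.31 in leaf, 0.12 in root, -0.29 in fruit and -1.13 in flower. Median-of-ratios scaling takes this shift out and so raises flower. Flower stayed the highest tissue of miR160a-3p and the lowest of miR390b-5p under each of the 4 scalings, whereas the highest tissue of miR390a-5p was flower in 1 of them and stem in the others.

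**Figure D5:**
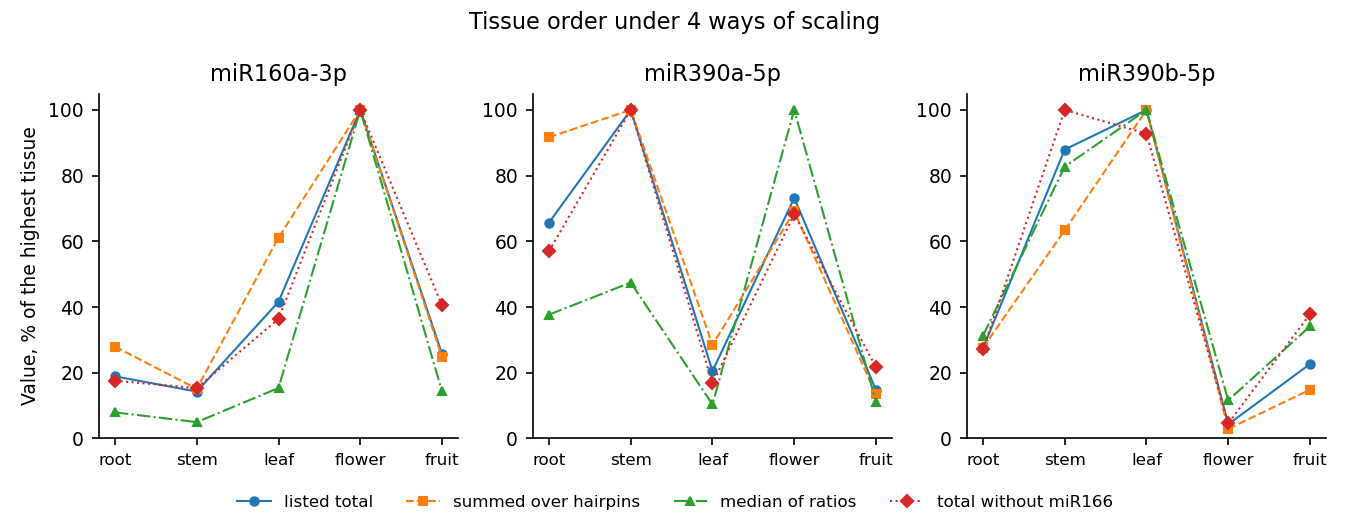
Values of miR160a-3p, miR390a-5p and miR390b-5p in the 5 tissues as a percentage of the highest tissue, each line a way of scaling the libraries. Flower is at 100% for miR160a-3p in all 4 and lowest for miR390b-5p in all 4; for miR390a-5p, flower and stem exchange places with median-of-ratios scaling.

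Between the highest and the lowest tissue both families changed more than 4-fold, miR160 by 7.01-fold and miR390 by 4.84-fold, as did 48 of the 57 families (84.2%), whose median was 13.3-fold. A list of 5 families known in plants to act on auxin signalling was listed in full: besides miR160 and miR390, miR167, another ARF regulator, changed 79.0-fold with its peak in fruit, miR393, which targets auxin receptor genes, 84.7-fold with its peak in leaf, and miR164, which targets NAC genes of the auxin response, 13.1-fold with its peak in stem. All of the 5 passed 4-fold, with a median of 13.1-fold, and by listed total their highest tissues were stem for 2 and leaf, flower and fruit for 1 each. Over all 57 families the highest tissue by listed total was root for 19, stem for 12, leaf for 12, flower for 7 and fruit for 7. Of 15 families linked in plants to phased secondary siRNAs, the class to which TAS3 siRNAs belong, 8 were listed, 7 of them passed 4-fold (87.5%) and the median was 12.1-fold, with miR1507 and miR403, listed at 0 in fruit, taken at 3 counts there. miR168, which targets AGO1 mRNA, did not pass, at 2.15-fold. By listed total the highest tissue of these 8 was root for 4 (miR482, miR5300, miR168 and miR403), stem for 3 (miR390, miR1507 and miR4376) and leaf for miR393, where root was also the commonest over all 57 families. With median-of-ratios size factors miR390 was highest in flower, as given above.

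Likeness of tissue pattern was measured as the root mean square difference of log2(normalised tags + 1) over the 5 libraries, after each family's mean was subtracted, among families with at least 50 tags. The families nearest to miR390 were miRC27 (0.607 log2 units), miR159 (0.793) and miR482 (0.843), where the median over 46 families was 1.87. Nearest to miR160 were miR166 (1.09), miR169 (1.11) and miR399 (1.12), against a median of 2.27; of these, miR169 also had its highest value in flower (2493), and miR166 and miR399 had theirs in fruit. The measure is also small for a family that changes little between tissues, such as miR166 (321849 normalised tags in leaf to 623489 in fruit). A low value alone therefore does not show a shared pattern, and miR482, near miR390, had its highest value in root (7005). miR390 was the tenth nearest to miR160, at 1.45. By the same measure on single sequences, added after the values were seen, miR390a-5p and miR390b-5p were 2.12 apart, and miR390b-5p had rank 58 of 104 sequences around miR390a-5p. Nearest to miR390a-5p outside its family was miR5301-3p (0.761), nearest to miR390b-5p was miR398c-3p (0.652), and nearest to miR160a-3p was miR166h-5p (0.628).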

How the data were processed

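The deposited file is a genome annotation written by the plant version of MIREAP, per the file headers, in which the authors list a whole-number tag count per library for each mature sequence. The sources used here do not state genome build, aligner, trimming or the treatment of tags with several matches. Repeated precursor lines were kept once (165 of 176). On 4 of the 8 member lines, all 3′ arms, the listed position did not match the sequence, so positions were computed from the hairpin.

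Each distinct sequence was counted once per family, at its largest count, and divided by the listed total so counted. Counts have exact Poisson intervals, shares Clopper-Pearson intervals, ratios intervals from the exact binomial split, all at 95%. A value under 3 counts was taken as 3 in the 4-fold rule. Rows below 10 tags (50 for sequence pairs and patterns) were left out. The change of a ratio has the exact conditional interval of an odds ratio. The 4-fold rule and the intervals were tried on simulated Poisson counts, which hold counting error only and no variation between plants. Members and lists were chosen with earlier results of these data known. All members were named, with the 3 families nearest to each family by tissue pattern and 2 lists; the pair measure and single-sequence likeness were added after the values were seen. Alternatives were other scalings, arms, minimums and a pseudocount of 10. Python 3.11.15, SciPy 1.17.1 and pandas 2.3.3 were used.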

Additional observations from a re-analysis of the deposited data

How the results depend on the processing

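No paired analysis was possible because each tissue has 1 library, and for the same reason no replicate could be left out. None of the highest against lowest differences compared here reversed; neighbouring tissues that changed places are given with their values above. On the log2 scale, flower over stem for miR160 was 2.81 and became 4.33 with median-of-ratios scaling. Stem over fruit for miR390 was 2.28 and became 1.60 with median-of-ratios scaling, 1.72 with totals without miR166 and 3.03 with the 3′ arms alone. As a plain ratio and not on the log2 scale, miR390 over miR160 with guide arms alone became 641 (stem), 584 (leaf), 328 (root), 33.4 (flower) and 27.9 (fruit). On the log2 scale again, the flower against leaf change of miR390a over miR390b was 6.38. It became 4.83 with the 3′ arms, whose interval held the first value. The 54 of 62 sequence pairs past 4-fold became 115 of 129 with a minimum of 10 tags. With no tag added, only pairs with all counts above 0 were used, and 30 of 38 passed. These settings differ in which pairs were tested, and the part of pairs with a count of 0 in the share was not tested. For the other moved values the cause was not tested. Arm shares were the same when summed over hairpins and with arms taken from their position, since no member sequence is shared. The nearest families of miR390 were the same 3 except with a minimum of 10 tags, where miR5303 replaced miR482. For miR160, miR6149 replaced miR169 with a pseudocount of 10, and miR168 replaced miR399 in sums over hairpins. Depth limits miR160a-5p, with at most 44 tags, and the miR390 3′ arms. The missing low totals leave miR160b unresolved.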
